A study of Rattus norvegicus with 6 samples.

Results

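The genes described here are those of 2 lytic forms of cell death, pyroptosis and necroptosis, in nuclei of the rat ileum. They were chosen by symbol, with earlier results of these data known. They are the pore-forming gasdermins Gsdmc, Gsdmd and Gsdme, the inflammatory caspases Casp1 and Casp4, the cytokines Il1b and Il18, and the necrosome genes Ripk1, Ripk3 and Mlkl. All 10 were among the 28282 gene symbols of the count tables. The data are UMIs (unique molecular identifiers, 1 per captured transcript) of single nuclei from 6 wild type male Sprague-Dawley rats aged 6 weeks, 1 library per rat. In the 3 rats of the SAP group, severe acute pancreatitis was set off by running 3% sodium taurocholate backwards into the pancreatic duct, at 0.1 mL per 100 g, after which the duct was clamped for 5 min. The 3 CON rats had a sham laparotomy with no infusion, and both groups were killed at 24 h. The injury is thus made in the pancreas, and the ileum was not itself infused. Of 90461 barcodes, 40970 nuclei passed the study's thresholds of at least 1200 UMIs, at least 500 genes and at most 5% mitochondrial UMIs. The study reports fewer nuclei at these thresholds, so the set used here is not its own set. Levels are in CPM, the UMIs of a gene per 1000000 UMIs of the same nuclei, and levels of different genes are not compared because transcript length is not taken into account.

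In pyroptosis, an inflammasome activates Casp1, or lipopolysaccharide in the cytosol activates Casp4, and either caspase cuts Gsdmd, whose freed end makes pores in the plasma membrane. Casp1 also matures the cytokines encoded by Il1b and Il18, which leave the cell through such pores. Gsdme is a further pore former of the same family. In necroptosis, Ripk1 and Ripk3 assemble the necrosome and Ripk3 phosphorylates Mlkl, which then breaks the membrane. All of these steps are switched by protein cutting or phosphorylation, which transcripts do not show.

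Passing nuclei numbered 6260 to 9246 per CON library and 3189 to 7893 per SAP library, with 11402966 to 28771508 and 5549260 to 19435288 UMIs. The barcode lists of CON replicate 2 and SAP replicate 1 reached down to 545 and 502 UMIs, against 1000 in the other 4. Median mitochondrial shares were 0.125% to 0.700% in CON and 0.387% to 1.84% in SAP. Barcodes were running names within each library, so the 195 to 746 names that pairs of libraries shared identify no common nucleus. Nuclei were clustered without the 10 genes, and clusters were named after cell classes only where fixed markers led clearly, with the ending "-like". The largest unnamed cluster, cluster 1 (7026 nuclei), was closest to enterocytes and led by the brush border genes Enpep and Si. Its enterocyte marker score of 0.48 missed the limit of 0.5. Its lead over the next class, fat at −0.08, also missed the required 0.8. Si did not count in the enterocyte score, because the list of 13 enterocyte markers held the symbol Sis, which the count tables lack. The score with Si was not computed, and values for enterocyte-like nuclei leave cluster 1 out. In summed counts, fewer cells of a class and less RNA per cell cannot be told apart.

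SAP replicate 2 stood apart in a way that touches most of the results below. In its stem/TA-like nuclei (TA, transit amplifying), 11 of the 11 enterocyte markers with a value stood at a larger share of their enterocyte-like level than in any other library. The median of those shares was 27.8% in SAP replicate 2 and from 2.83% to 11.5% in the other 5 libraries. In its goblet-like nuclei this held for 11 of 11 markers and in its T-like nuclei for 9 of 11. Values without this library are given beside the differences it moves most.

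Over the classes of nuclei, Gsdmc was a gene of goblet-like nuclei, Ripk3 and Gsdmd of enterocyte-like nuclei, Il1b of neutrophil-like nuclei, and Casp1 of no class in particular. These levels are descriptions with no test. The heatmap of levels shows this order for all 10 genes.

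**Figure D1:**
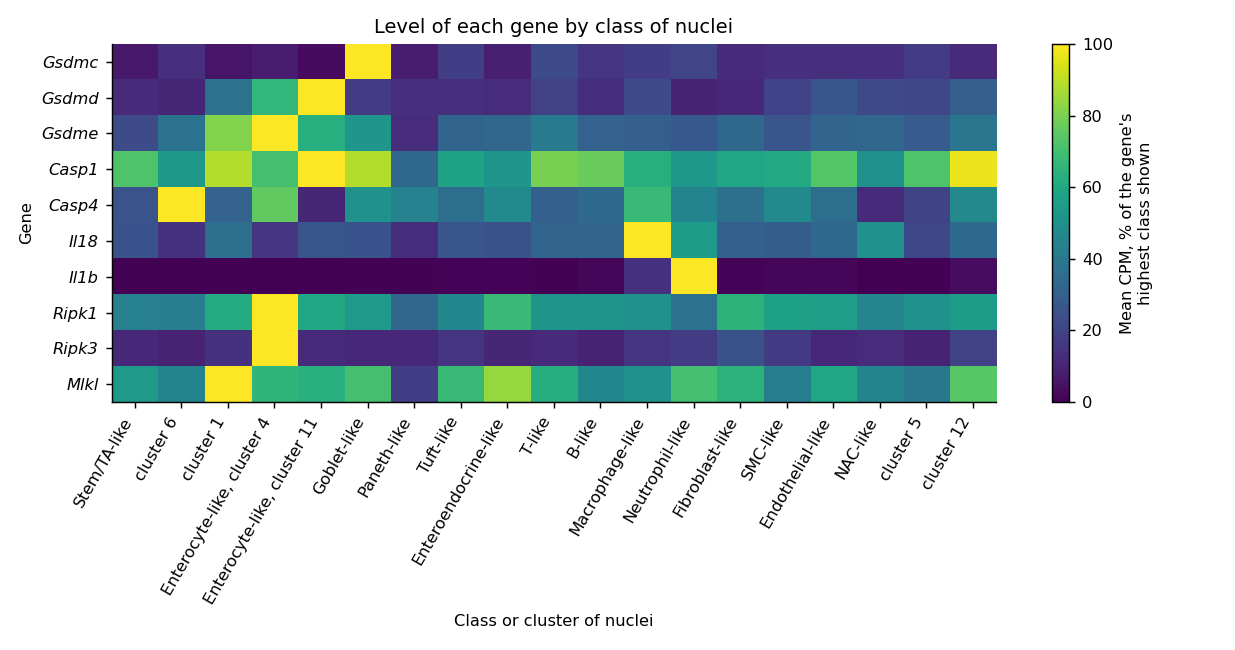
Mean level of each gene (rows) in 19 classes and clusters of nuclei (columns), as a percent of the gene's own highest class shown, from CPM averaged over the 6 libraries. Gsdmc peaks in goblet-like nuclei, Ripk3 in enterocyte-like cluster 4, Gsdmd in enterocyte-like cluster 11 and Il1b in neutrophil-like nuclei, while Casp1 is spread over most columns.

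Promoter sequences of 7 of the 10 genes were matched in RefSeq's table for the build GRCr8, namely Gsdme, Casp1, Il18, Il1b, Ripk1, Ripk3 and Mlkl. Shown are the 250 bases before the annotated start, read along the gene's own strand, for Casp1 and Mlkl, whose levels followed each other over classes, and for Ripk3 and Il1b, which were the most confined of the 7. Casp1 lies on the plus strand and the other 3 on the minus strand. Gsdme and Ripk1, whose levels followed each other as closely (r = 0.84 for either pair), are not shown. Capitals mark letters matched by 1 of 7 motifs that were chosen after values were seen, searched on both strands. Every gene with such a match is among those shown.
Casp1, chr8:10872580-10872829: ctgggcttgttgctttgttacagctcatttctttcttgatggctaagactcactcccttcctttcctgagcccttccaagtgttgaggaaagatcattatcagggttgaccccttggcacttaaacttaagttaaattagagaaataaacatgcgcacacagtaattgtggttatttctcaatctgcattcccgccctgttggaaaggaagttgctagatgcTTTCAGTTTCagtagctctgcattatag
Mlkl, chr19:56213859-56214108: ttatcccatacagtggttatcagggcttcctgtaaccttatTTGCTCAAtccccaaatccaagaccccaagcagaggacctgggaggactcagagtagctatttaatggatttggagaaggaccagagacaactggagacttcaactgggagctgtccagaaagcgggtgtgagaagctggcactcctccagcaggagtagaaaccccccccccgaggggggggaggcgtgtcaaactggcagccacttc
Ripk3, chr15:33262026-33262275: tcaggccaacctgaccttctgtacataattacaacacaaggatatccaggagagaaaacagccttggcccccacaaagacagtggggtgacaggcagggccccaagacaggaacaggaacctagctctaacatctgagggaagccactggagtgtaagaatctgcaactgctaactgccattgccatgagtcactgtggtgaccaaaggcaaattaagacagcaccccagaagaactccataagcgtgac
Il1b, chr3:137036582-137036831: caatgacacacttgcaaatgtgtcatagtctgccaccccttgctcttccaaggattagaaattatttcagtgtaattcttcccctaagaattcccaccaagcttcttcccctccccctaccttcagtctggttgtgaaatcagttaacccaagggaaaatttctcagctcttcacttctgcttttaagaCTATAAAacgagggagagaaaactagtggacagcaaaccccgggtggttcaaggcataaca
The capitals of Casp1 are the interferon response motif, GAAA, any 2 bases and GAAA, read on the opposite strand, 28 to 19 bases before the start, which 3.41% of 33469 promoters held in a window of the same length. In Mlkl they are the C/EBP motif TTGCNNAA (9.22% of promoters) on the gene's own strand. In Il1b they match the letters of the CDX2 motif TTTATNG (10.1%) on the opposite strand. They lie 61 to 55 bases before the start and read CTATAAA on the gene's own strand. No binding at any match was measured. No match for the motifs of HNF4 (CAAAGTCC, 1.14% of promoters), GATA factors (AGATAAG, 2.54%), NF-kB (GGG, any 2 bases and TTTCC, 1.30%) or PU.1 (GAGGAAGT, 2.04%) lay in the 7 windows, and Gsdme, Il18, Ripk1 and Ripk3 held none of the 7 motifs. No match overlapped another.

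Gsdmc, a gasdermin of the intestinal epithelium that type 2 cytokines raise, stood at 77.1 ± 49.9 CPM (SD, n = 6) in goblet-like nuclei, and 50.8% of its 1464 UMIs lay there. In the CON libraries its goblet-like level was 58.0, 174 and 62.5 CPM, and in SAP 73.5, 64.1 and 29.9 CPM. CON replicate 2 was the highest and SAP replicate 3 the lowest, with the other 4 between 58.0 and 73.5 CPM. Within the goblet-like class, cluster 2 held 90.9 ± 49.4 CPM and cluster 16, which was led by the ion channel genes Best2 and Scnn1g, 27.7 ± 21.8 CPM, and cluster 2 was higher in 6 of 6 libraries. Gsdmc was itself among the 10 leading genes of cluster 2. The genes most like it over 21 classes were Bcas1 (Pearson r = 0.90), Fer1l6 (0.90) and Sytl2 (0.90), all 3 computed on nuclei that share libraries, depth and clustering.

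Other goblet transcripts also appeared outside goblet-like nuclei. In T-like nuclei, the next in order, its pooled level was 23.0% of the goblet-like level, where those of the mucin gene Muc2 and the goblet transcription factor gene Spdef were 24.1% and 21.9%. The T-like level of Gsdmc, 17.2 ± 5.41 CPM (SD, n = 6), thus lay between those of the other goblet genes when set against goblet-like nuclei. From the T-like class down to rank 21, each class differed from the next by less than the spread over libraries.

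Gsdmd, the main pore former of pyroptosis, stood at 80.9 ± 33.1 CPM (SD, n = 6) in enterocyte-like nuclei and at 39.4 ± 21.5 CPM in cluster 1, and was higher in the former in 6 of 6 libraries. It was at 12.4 ± 18.3 CPM in stem/TA-like nuclei. Enterocyte-like nuclei fell into clusters 4, led by the villus tip genes Apoa4, Slc28a2 and Ada, and 11, led by the bile acid genes Fabp6 and Slc51b beside Reg3g. Gsdmd was at 69.3 ± 28.8 CPM in the former and 105 ± 49.0 CPM in the latter, where it was higher in 5 of 6 libraries. The exception was CON replicate 2, with 6.64 CPM from 1 UMI in cluster 11, against 113 to 141 CPM in the other 5 libraries. Lap3, Pnpla2 and Anpep followed Gsdmd most closely over classes (r = 0.94 for each).

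Ripk3, the kinase that turns on Mlkl, was the member most confined among enterocytes. It stood at 157 ± 56.4 CPM (SD, n = 6) in cluster 4, at 18.7 ± 8.84 CPM in cluster 11 and at 22.1 ± 9.89 CPM in cluster 1. In cluster 4 the CON libraries held 55.5, 170 and 163 CPM and the SAP libraries 181, 147 and 226 CPM. Each library was higher there than in its own clusters 11 and 1, and the lowest value, in CON replicate 1, rested on 51 UMIs. Pooled over libraries, Ripk3 in cluster 1 was 19.4% of its enterocyte-like level, between Apoa4 at 4.95% and Fabp6 at 43.7%. The genes most like Ripk3 over classes were Cd55 (r = 0.93), Slc28a2 (0.93) and Ggt1 (0.93), of which Slc28a2 and Ggt1 are leading genes of cluster 4.

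Casp4, which binds lipopolysaccharide in the cytosol, had the same preference within enterocytes, with 28.8 ± 13.6 CPM in cluster 4 against 4.03 ± 3.34 CPM in cluster 11, the latter from 11 UMIs in all. Its highest class was cluster 6 (1434 nuclei), an unnamed epithelial cluster led by Gfra4 and Habp2, at 38.0 ± 21.7 CPM. That level was above the stem/TA-like 9.71 ± 2.64 CPM in 6 of 6 libraries, and above cluster 4 in 5 of 6. Rnf215, Zfp598 and Phldb3 were most like it over classes, with r of 0.80, 0.79 and 0.77.

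The plot of epithelial clusters gives these genes library by library.

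**Figure D2:**
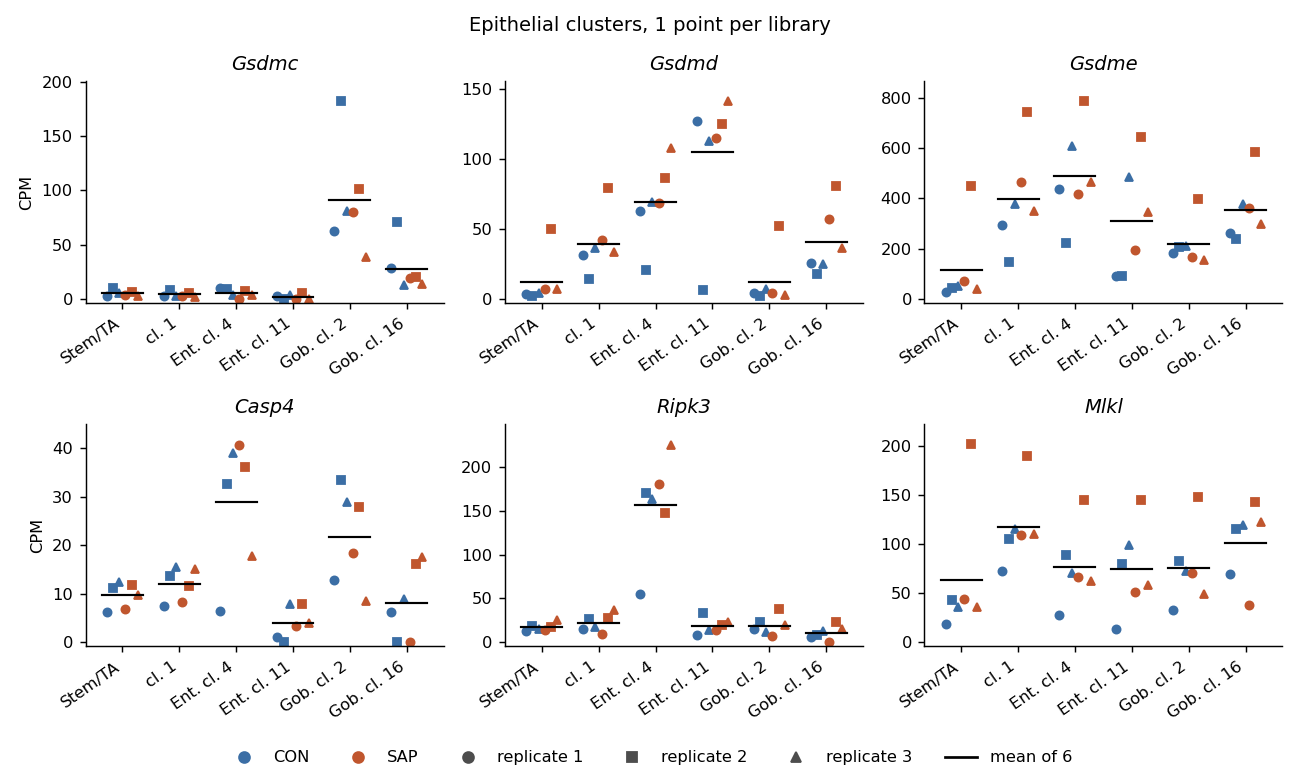
Level in CPM (vertical axis, linear) of 6 genes in 6 epithelial classes and clusters (Ent., enterocyte-like; Gob., goblet-like), with 1 point per library coloured by group and a line at the mean of 6. Ripk3 averages 157 CPM in enterocyte-like cluster 4 and no more than 22.1 CPM in the other 5, and SAP replicate 2 (square) is high for Gsdmd, Gsdme and Mlkl in stem/TA-like nuclei.

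Gsdme and Ripk1 were highest in enterocytes without being confined there. Gsdme stood at 429 ± 212 CPM (SD, n = 6) in enterocyte-like nuclei, 397 ± 200 in cluster 1 and 256 ± 115 in goblet-like nuclei, neighbours that did not differ beyond their spread, and was lowest in Paneth-like nuclei at 63.0 ± 32.3 CPM. Ripk1, a scaffold of both survival and death signals downstream of tumour necrosis factor, was at 86.9 ± 28.5 CPM in enterocyte-like nuclei and at 98.9 and 58.8 CPM in clusters 4 and 11. Over 21 classes the levels of Gsdme and Ripk1 had a Pearson r of 0.84, the highest of any pair of members, followed by Casp1 with Mlkl at 0.84. The closest genes were Cdhr5, Atosb and Myo15b for Gsdme (r of 0.96, 0.95 and 0.95) and Cda, Prrg4 and Ccdc68 for Ripk1 (0.92 for each).

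Mlkl, the executor of necroptosis, did not share the peak of Ripk3. It stood at 117 ± 38.9 CPM (SD, n = 6) in cluster 1 and at 76.8 ± 38.6 CPM in cluster 4, and cluster 1 was the higher in 6 of 6 libraries. It was lowest in Paneth-like nuclei, at 21.9 ± 17.03 CPM. LOC102547718, Rsrp1 and Ppard were most like it (r of 0.97, 0.97 and 0.96).

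Casp1, the inflammasome's own protease, was the flattest of the 10. Over whole classes it ran from 14.8 ± 11.1 CPM (SD, n = 6) in Paneth-like nuclei to 43.3 ± 26.7 CPM in cluster 12, and its highest class was 1.36-fold above the median class. No neighbours among its first 3 classes, cluster 12, mesothelial-like nuclei and cluster 1, differed beyond their spread. Tm9sf2, Pcsk5 and Coro2a were most like Casp1 (r of 0.96, 0.94 and 0.94).

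Both cytokines had their highest levels in myeloid nuclei. Il18 was highest in macrophage-like nuclei at 75.5 ± 57.2 CPM (SD, n = 6), of which SAP replicate 1 gave 186 CPM from 6 UMIs, and at 58.9 CPM pooled over libraries. It was also present in epithelium, at 27.6 ± 6.83 CPM in cluster 1. The genes most like it were Zfyve26, Abr and C17h6orf62 (r of 0.88, 0.86 and 0.86). Il1b was sparse, with 339 UMIs in all. The 138 neutrophil-like nuclei held 140 of these and the 803 macrophage-like nuclei 65, and the pooled levels there were 394 and 33.3 CPM, with a mean of no more than 9.02 CPM in any other class. Csf2ra, Fcer1g and Pla2g7, genes of myeloid cells, were most like it (r of 0.92, 0.90 and 0.89).

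Il1b in neutrophil-like nuclei stood at 49.2, 80.4 and 95.6 CPM in CON and at 869, 78.7 and 446 CPM in SAP, but CON rested on 8 UMIs in all and the class had too few nuclei per library to be tested. SAP replicates 1 and 3 were above all other libraries, and SAP replicate 2 was among the CON values. In SAP replicate 1, 52 of 74 Il1b UMIs (70.3%, exact 95% binomial interval 58.5% to 80.3%) were in neutrophil-like nuclei, and in SAP replicate 3, 78 of 142 (54.9%, 46.4% to 63.3%). In SAP replicate 2 they were 2 of 12 (16.7%, 2.09% to 48.4%), and in CON replicate 3 they were 6 of 52 (11.5%, 4.35% to 23.4%). These intervals cover counting error only. The plot of Il1b sources shows the 3 origins per library.

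**Figure D3:**
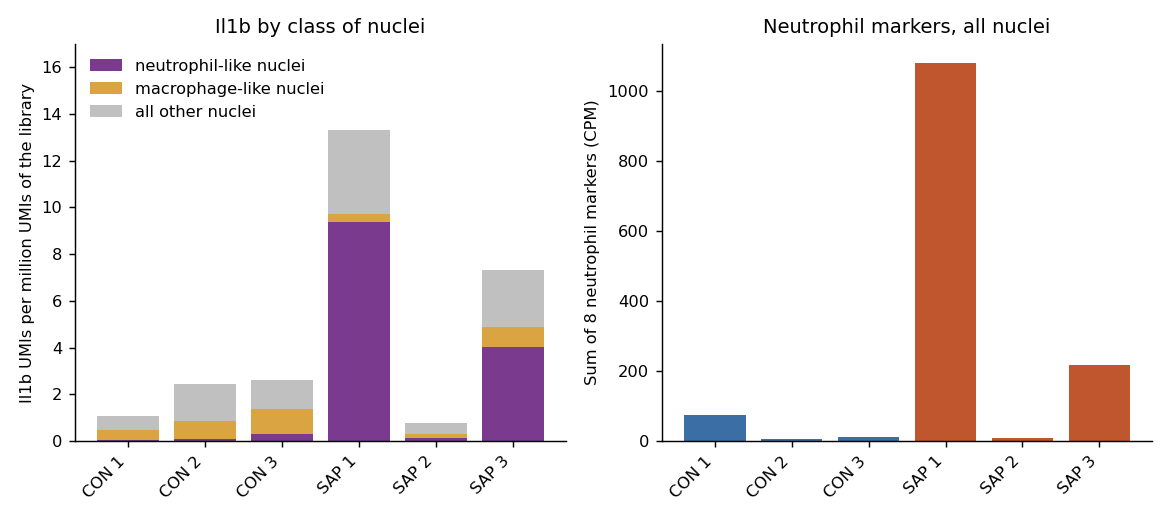
Left, Il1b level of each library in CPM (stacked bars from 0), split by the class of nuclei that held them. Right, the summed level of 8 neutrophil markers over all nuclei of each library (CPM), which is highest in SAP replicate 1 (1081) and SAP replicate 3 (219), the libraries with the most Il1b.

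Some other genes of the IL-1 system had their highest level in the same class, a pattern picked out once values were known. Others did not, among them Il33 (cluster 22), Il18bp (enterocyte-like), Sigirr (tuft-like) and Irak2 (cluster 1). Pooled over libraries, neutrophil-like nuclei held Il1r2, the decoy receptor, at 534 CPM (190 of its 358 UMIs), the receptor gene Il1r1 at 301 CPM, the receptor antagonist gene Il1rn at 205 CPM and the inflammasome sensor gene Nlrp3 at 157 CPM. The next class had 4.84 CPM of Il1r2, 182 CPM of Il1r1 (fibroblast-like), 9.22 CPM of Il1rn and 100 CPM of Nlrp3 (both macrophage-like). The epithelial sensors lay elsewhere, with Naip6 at 510 CPM in enterocyte-like nuclei and Nlrc4, its partner in sensing bacterial flagellin and secretion systems, at 191 CPM in cluster 1. Of 78 genes with at least 100 UMIs among 81 listed around the members, the highest class was neutrophil-like for 19, enterocyte-like for 12, and B-like and cluster 1 for 9 each. The neutrophil-like class had only 138 nuclei, so levels there are imprecise. Clusters 22 and 19, likewise small (131 and 166 nuclei), were the highest class for 8 and 5. How often each class is highest over all genes is not given here.

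The comparison of SAP with CON was made on UMIs summed per library, with edgeR's quasi-likelihood test after TMM scaling and Benjamini-Hochberg adjustment over all genes tested. Calls required the adjusted p to be below 0.05 and the fold change to be 0.5 or more on the log2 scale, in either direction. Over all nuclei 0 of the 10 members were called, as were 0% of the 19187 genes tested, and the lowest adjusted p of a member was 0.545. At an unadjusted p under 0.05 there were 3 members with SAP higher, Gsdmd, Gsdme and Ripk3, against 3.97% of all genes, and 0 with SAP lower, against 4.47%. SAP lay above CON without overlap for 2, Gsdmd and Ripk3, against 4.90% of all genes, and below it for 0, against 9.06%. DESeq2 called 215 genes, none of them a member. The median log2 fold change was 0.70 over the members and 0.02 over all genes, and 8 members and 52.2% of all genes were above 0. Over all epithelial nuclei 0 members and 0% of 16859 genes were called. Unadjusted p was under 0.05 for the same 3 with SAP higher (5.45% of genes) and for Gsdmc with SAP lower (6.01%). Groups did not overlap for Gsdmd and Ripk3 upwards (6.91% of genes) and for Gsdmc downwards (12.5%). There 8 members had log2 fold changes above 0, as did 49.9% of genes. Epithelial nuclei were 67.4% to 87.1% of each CON library and 53.0% to 86.7% of each SAP library.

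**Figure D4:**
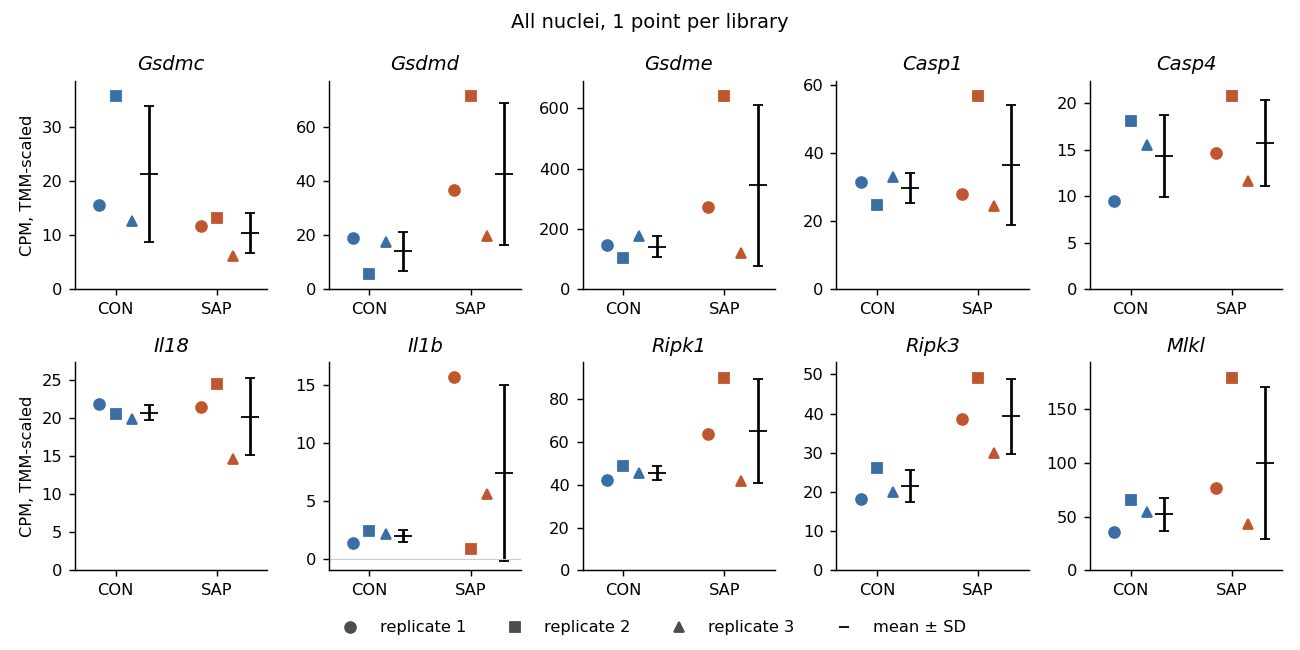
TMM-scaled level over all nuclei (CPM, linear axes) of the 10 genes, with 1 point per library (circle, replicate 1; square, replicate 2; triangle, replicate 3) and the mean ± SD of 3 beside them. Only Gsdmd and Ripk3 have every SAP point above every CON point, and SAP replicate 2 is the highest of the 6 for Gsdmd, Gsdme, Casp1, Casp4, Il18, Ripk1, Ripk3 and Mlkl.

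For the necrosome, the TMM-scaled level of Ripk3 over all nuclei was 18.3, 26.0 and 19.98 CPM in CON and 38.7, 49.1 and 30.0 CPM in SAP. Every SAP rat lay above every CON rat. The log2 fold change was 0.88 (standard error 0.29), with edgeR's adjusted p = 0.545. Over all epithelial nuclei it was 1.01 (standard error 0.25, edgeR, adjusted p = 0.391), again without overlap. DESeq2 called it (adjusted p = 0.0276), among 298 of the 16859 genes. Over the alternatives the adjusted p for epithelial nuclei was otherwise above 0.05, and the fold change stayed between 0.86 and 1.12. Clustering at resolution 0.4 is among these alternatives. There the epithelial sum took in an unnamed cluster of 4507 nuclei led by lymphocyte genes such as Pax5 and Gzmb. That alternative is therefore no check on epithelium alone.

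The share of nuclei in cluster 4, where Ripk3 was highest, ran at 2.97%, 3.82% and 5.28% for the CON rats, against 10.0%, 16.4% and 5.94% for the SAP rats, and so did not overlap either. Levels were also averaged over 17 classes and clusters with the same weights in every library, clusters 4 and 11 counting together as enterocyte-like. Ripk3 then stood at 16.8, 33.4 and 26.2 CPM in CON and 25.8, 34.6 and 43.5 CPM in SAP, with overlap and a log2 ratio of 0.44 (exact two-sided permutation test, p = 0.3). The smallest p that 3 rats against 3 can give is 0.1. With clusters 4 and 11 weighted apart, an alternative added after seeing the data, the log2 ratio was 0.38, again with overlap (exact two-sided permutation test, p = 0.2). Within enterocyte-like nuclei, where clusters 4 and 11 are summed, the groups did not overlap after TMM scaling, as for 6.25% of the genes tested in that class. Their values were 42.5, 103 and 109 CPM in CON and 152, 125 and 186 CPM in SAP (log2 fold change 0.86, standard error 0.39, edgeR, adjusted p = 0.729). The mix of the 2 clusters differed between libraries and overlapped between groups. Cluster 4 gave 275 of 532, 239 of 322 and 444 of 553 enterocyte-like nuclei in CON replicates 1 to 3. In SAP it gave 319 of 487, 981 of 1199 and 469 of 548. Within cluster 4 the groups overlapped in plain CPM, as given above. That scale differs from the TMM-scaled one of the whole class, so the 2 results are not directly comparable. The part of the mix in the difference was not tested. In fibroblast-like nuclei the log2 fold change of Ripk3 was 0.77 (standard error 0.52, edgeR, adjusted p = 1).

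Mlkl stood at 35.8, 65.4 and 54.6 TMM-scaled CPM in CON and 76.7, 179 and 43.2 CPM in SAP. SAP replicate 2 was the highest and SAP replicate 3 lay among the CON values. The log2 fold change of 0.94 (standard error 0.50, edgeR, adjusted p = 0.664) was 0.20 without SAP replicate 2. In cluster 1 it was 0.57 (standard error 0.27) and in enteroendocrine-like nuclei 0.16 (standard error 0.42), edgeR's adjusted p being 0.467 and 0.956. Ripk1 stood at 42.1, 48.9 and 45.3 CPM in CON and 63.6, 89.8 and 41.7 CPM in SAP, of which SAP replicate 3 was the lowest of all 6. Its log2 fold change was 0.52 (standard error 0.31, edgeR, adjusted p = 0.703) and 0.21 without SAP replicate 2. In enterocyte-like nuclei Ripk1 was at 51.9, 52.7 and 93.1 CPM in CON and 108, 114 and 107 CPM in SAP, without overlap (log2 fold change 0.72, standard error 0.32, edgeR, adjusted p = 0.726). In enteroendocrine-like nuclei it was 0.60 (standard error 0.40, edgeR, adjusted p = 0.778).

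Among the gasdermins, Gsdmd stood over all nuclei at 18.7, 5.63 and 17.4 TMM-scaled CPM in CON and at 36.6, 71.4 and 19.6 CPM in SAP. The groups did not overlap, though CON replicate 1 and SAP replicate 3 lay close together. The log2 fold change was 1.60 (standard error 0.58, edgeR, adjusted p = 0.551), and it was 0.99 without SAP replicate 2 and 1.23 without CON replicate 2. With class weights held equal between libraries Gsdmd stood at 20.4, 6.82 and 22.9 CPM in CON and 26.4, 59.8 and 27.8 CPM in SAP (log2 ratio 1.19, exact two-sided permutation test, p = 0.1, the smallest possible). The log2 ratio was 0.72 without SAP replicate 2 and 0.78 without CON replicate 2. No other member was without overlap on that scale. A limit of 1% mitochondrial UMIs left 384 nuclei in SAP replicate 1, 1908 in SAP replicate 2 and at least 6176 in each other library. With that limit, which left 8 classes, the groups overlapped for Gsdmd (log2 ratio 0.93, p = 0.4 in the exact permutation test) and not for Gsdmc and Il18 (p = 0.1 each). In enterocyte-like nuclei, its main class, the log2 fold change was 0.45 (standard error 0.60, edgeR, adjusted p = 0.878) and became −0.02 without CON replicate 2. In cluster 1 it was 0.96 (standard error 0.48, edgeR, adjusted p = 0.498).

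The largest Gsdmd difference among the classes was in stem/TA-like nuclei, which hold little of it, with plain CPM of 3.82, 2.50 and 4.29 in CON and 6.84, 49.6 and 7.47 in SAP. SAP replicate 2 stood far above the rest there (log2 fold change 2.69, standard error 0.85, edgeR, adjusted p = 0.528). Without it the log2 fold change was 0.96 (standard error 0.50, edgeR, adjusted p = 0.731). Its stem/TA-like Gsdmd was 53.3% of its enterocyte-like level, against 4.00% to 14.5% in the other libraries. For Gsdme the corresponding shares were 59.1% against 8.80% to 23.8%, and for Mlkl 140% against 45.4% to 89.0%. Ripk3 and Ripk1 lay within the range of the other libraries, at 14.3% (11.5% to 39.9%) and 50.0% (35.4% to 73.1%). In goblet-like nuclei of SAP replicate 2 Gsdmd was again higher (69.9% against 7.33% to 17.7%) and Gsdme was not (63.7% against 44.6% to 111%). In its T-like nuclei both were higher, Gsdmd at 60.0% (8.42% to 23.2%) and Gsdme at 68.0% (26.5% to 57.0%). Mlkl there was within the range, at 111% (66.6% to 167%). The shares of the enterocyte markers were larger in that library, as given above, and their part in these values was not tested.

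Gsdme stood at 145, 103 and 175 TMM-scaled CPM in CON and 271, 640 and 121 CPM in SAP over all nuclei. SAP replicate 3 lay among the CON values. The log2 fold change was 1.29 (standard error 0.55, edgeR, adjusted p = 0.583) and 0.46 without SAP replicate 2. It was 0.65 (standard error 0.49) in enterocyte-like nuclei and 0.96 (standard error 0.45) in cluster 1, with edgeR's adjusted p of 0.795 and 0.463. Gsdmc went the other way, from 15.6, 35.6 and 12.5 CPM in CON to 11.7, 13.0 and 6.10 CPM in SAP. SAP replicate 2 was above CON replicate 3 by a small margin. The log2 fold change was −1.05 (standard error 0.49, edgeR, adjusted p = 0.617), and −0.48 without CON replicate 2, the highest library. Over all epithelial nuclei it was −1.08 (standard error 0.44, edgeR, adjusted p = 0.426), without overlap. The share of goblet-like nuclei was 10.5% to 14.2% in CON and 6.35% to 9.12% in SAP. With class weights held equal the log2 ratio of Gsdmc was −0.85, with overlap (exact two-sided permutation test, p = 0.3). Within goblet-like nuclei the Gsdmc log2 fold change was −0.76 (standard error 0.52) and in T-like nuclei −0.53 (standard error 0.45), with overlap in both and edgeR's adjusted p of 0.744 and 0.862.

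Of the caspases, Casp1 stood at 31.4, 24.6 and 32.9 TMM-scaled CPM in CON and 28.1, 56.7 and 24.4 CPM in SAP, and Casp4 at 9.44, 18.1 and 15.5 CPM in CON and 14.7, 20.8 and 11.7 CPM in SAP. The groups overlapped for both. Their log2 fold changes of 0.30 (standard error 0.36) and 0.13 (standard error 0.37) had edgeR adjusted p of 0.881 and 0.955, and both turned below 0 without SAP replicate 2, to −0.18 and −0.12. In cluster 12 and cluster 1 the log2 fold change of Casp1 was 0.74 and 0.05 (edgeR, adjusted p = 0.858 and 0.969). For Casp4 it was 0.40 in cluster 6 and 0.63 in enterocyte-like nuclei (edgeR, adjusted p = 0.846 and 0.825).

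Il18 overlapped between the groups, at 21.8, 20.5 and 19.8 TMM-scaled CPM in CON and 21.5, 24.4 and 14.5 CPM in SAP (log2 fold change −0.04, standard error 0.29, edgeR, adjusted p = 0.983). It was −0.22 (standard error 0.58) in macrophage-like nuclei and −0.40 (standard error 0.33) in cluster 1, with edgeR's adjusted p of 1 and 0.688. In macrophage-like nuclei the mean of the TMM-scaled levels was nevertheless higher in SAP, at 99.95 CPM against 71.4 CPM, through the 6 UMIs of SAP replicate 1. Il1b had the largest fold change of the 10, from 1.38, 2.39 and 2.15 TMM-scaled CPM in CON to 15.7, 0.85 and 5.62 CPM in SAP. SAP replicate 2 was the lowest of all 6 libraries, so the groups overlapped. The log2 fold change was 1.87 (standard error 0.87, edgeR, adjusted p = 0.617), and it was 0.77 without SAP replicate 1, 2.41 without SAP replicate 2 and 0.93 without neutrophil-like and macrophage-like nuclei.

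The summed level of neutrophil markers was highest in SAP replicates 1 and 3, which also had the most Il1b. Within CON this order was not kept. CON replicate 1 had the highest sum of the CON libraries and the lowest Il1b, at 1.38 TMM-scaled CPM. In SAP replicates 1 and 3 most of the sum came from S100a8 and S100a9. All 8 markers were detected, Cxcr2 was at 0 in CON replicate 2, and their summed level was 4.65 to 74.1 CPM in CON and 8.65 to 1081 CPM in SAP, 7 of the 8 being higher on average in SAP. Their part in the Il1b difference was not tested beyond leaving out those nuclei. All 9 macrophage markers were detected, summing to 132 to 171 CPM in CON and 106 to 258 CPM in SAP. Macrophage-like nuclei were the only class where Il1b was tested, as neutrophil-like nuclei were too few per library. In macrophage-like nuclei it stood at 20.4, 52.2 and 53.8 CPM in CON and 62.0, 15.5 and 32.2 CPM in SAP. The values of SAP replicates 1 and 2 rested on 2 and 3 UMIs. The groups overlapped, with a log2 fold change of −0.44 (standard error 0.57, edgeR, adjusted p = 1).

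Classes were tested where each library held 10 nuclei or more, which left 17. There, 92 tests of members passed the filter on low counts, in 16 of the 17. Paneth-like nuclei had 0. A member can pass through the group where it is high, so these tests do not stand for all members in all classes. Of the 92, 0 were called, against 0.0243% of 139855 gene tests in the same fits. The groups did not overlap in 8 (SAP higher) and 0 (SAP lower), against 6.02% and 7.54% of all tests. Unadjusted p was under 0.05 in 13, each higher in SAP, against 4.09% of all tests higher and 3.52% lower. Log2 fold changes were above 0 in 78, against 50.8% of all tests. Without SAP replicate 2 these counts were lost: of 99 tests 47 were above 0, 0 had an unadjusted p under 0.05 with SAP higher, and 1, of Gsdmc, with SAP lower. The matching shares of all genes without that library are not given here, so the loss cannot be called particular to the members. The classes are of the same 6 rats and are not independent.

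The signs were alike over classes for several members, and for some of them this changed without 1 library. Gsdme was higher in 16 of 16 classes tested (log2 fold change 0.30 to 2.33), Mlkl in 15 of 15 (0.16 to 1.67), Ripk3 in 9 of 9 (0.09 to 1.13), Gsdmd in 6 of 6 (0.45 to 2.69) and Casp1 in 11 of 11 (0.01 to 0.74). Ripk1 was higher in 14 of 15 and Gsdmc lower in 4 of 4 (−0.76 to −0.41), while Casp4 was higher in 5 of 7 and Il18 in 2 of 8. Without SAP replicate 2 Gsdme was higher in 7 of 16, Mlkl in 10 of 15, Ripk1 in 10 of 15 and Casp1 in 1 of 13. Ripk3 was then higher in 7 of 10 and Gsdmd in 7 of 8, and Gsdmc was lower in 5 of 5. The plot of fold changes sets both fits side by side.

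**Figure D5:**
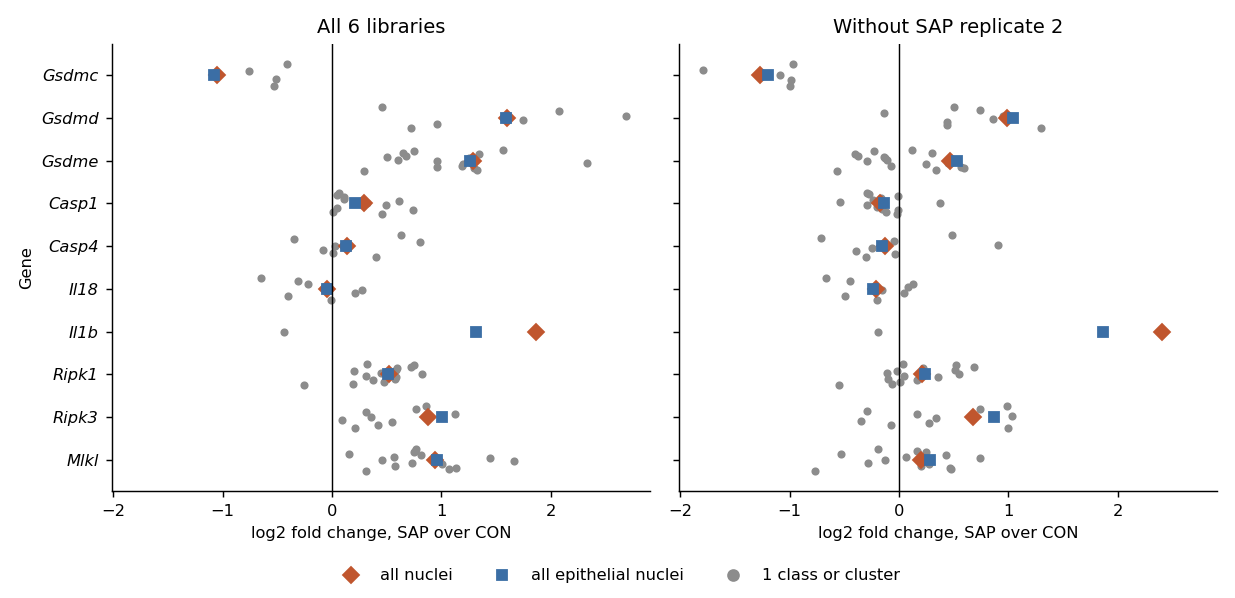
Log2 fold change of SAP over CON (horizontal axis) for each gene, over all nuclei (diamond), all epithelial nuclei (square) and in each class or cluster tested (grey points), with all 6 libraries (left) and without SAP replicate 2 (right). The points of Gsdme span 0.30 to 2.33 on the left and −0.57 to 0.60 on the right.

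The genes around the members were taken from 5 lists by role, and 0 of their genes were called in either direction by edgeR, as was so for all genes. Of the genes tested over all nuclei, log2 fold changes were above 0 for 10 of 14 inflammasome sensors and adaptors (median 0.11), 10 of 10 genes of membrane rupture and repair (0.34), and 22 of 25 genes upstream of the necrosome (0.20). The same held for 12 of 15 IL-1 family genes (0.39) and 11 of 14 apoptotic caspases and regulators (0.44), beside 52.2% of all genes (0.02). Of the 78 genes tested, 5 had an unadjusted p under 0.05, all with higher SAP means, beside 3.97% of all genes, and 0 with lower means. The groups did not overlap for 10 with SAP higher, beside 4.90% of all genes, and for 0 with SAP lower. Both held for 4 genes, which are named by the rule. Counts for these lists without SAP replicate 2 are not given here, though leaving it out changed the members' counts over classes.

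Myd88, the adaptor through which IL-1 and IL-18 receptors signal, had the narrowest groups, at 13.8, 14.3 and 14.2 TMM-scaled CPM in CON and 22.3, 21.4 and 22.2 CPM in SAP (log2 fold change 0.64, standard error 0.26, edgeR, adjusted p = 0.568). Tnfaip3, a brake on NF-kB and on necroptosis, was at 7.92, 7.85 and 11.1 CPM in CON and 15.7, 17.6 and 21.5 CPM in SAP (log2 fold change 1.03, standard error 0.31, edgeR, adjusted p = 0.545). The survival genes Mcl1 and Bcl2l1 had log2 fold changes of 0.82 (standard error 0.22) and 0.72 (standard error 0.28), with edgeR's adjusted p of 0.545 and 0.566. Without SAP replicate 2 the log2 fold changes of these 4 were 0.43 to 1.07. They were named for having no overlap, so their direction without 1 SAP library is no check on them. The fifth gene, Il1r2, was at 0.58, 0.09 and 1.82 CPM in CON and 18.5, 0.99 and 7.88 CPM in SAP, the same order of SAP libraries as Il1b. DESeq2 called Il1r2 over all nuclei, and no other listed gene there.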

How the data were processed

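The deposited values are raw UMI counts per gene and nucleus, made by the authors with dnbc4tools, and the submitters' processing notes name the build mRatBN7.2 and Seurat 4.3.0. Thresholds on nuclei were the study's. The nuclei were log-normalized, integrated with a re-implementation of Harmony on 30 principal components and clustered by Leiden (scanpy 1.11.5, leidenalg 0.10.2, resolution 0.8), leaving the 10 genes and the listed genes out of the 2000 variable genes. A cluster was named at a mean log2 marker ratio of at least 0.5 that led the next class by at least 0.8, with at least 3 markers detected. An unnamed cluster was counted as epithelial where the named class closest to it was epithelial. Of 26 clusters, 8 were unnamed, and 2 of these held 1 nucleus each. Doublets were kept, and the 5% of nuclei with the highest Scrublet scores per library (2046) were removed as an alternative.

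UMIs were summed per library and class, and tested under R 4.3.3 with the robust quasi-likelihood fit of edgeR 4.0.16, after filterByExpr and TMM scaling, the rat being the unit, with DESeq2 1.42.0 as an alternative. Nothing was tested between classes. In data simulated for all nuclei (18923 genes), edgeR recovered 57% of genes changed by 1 and 100% of those changed by 2 on the log2 scale. The simulated spread between libraries was a fixed value for every gene, not estimated from these data, and only well-counted genes were changed. These shares therefore do not give the power for the members in the real fits. Levels by class are UMIs scaled by the library's total in that class. For pairing, the deviations of same-numbered CON and SAP libraries from their group means had correlations of 0.602, 0.228 and 0.450 over 19431 genes, against −0.610 to 0.0687 for other pairs. Deviations cancel out within a group, so the other pairs are no independent contrast. As all 3 were over 0.1, the number was also fitted as a block, although no label says what it marks. Values and p in the Results are from fits and permutations without the block. The labels place all 6 libraries in the same batch. Promoter letters came from RefSeq (GRCr8).

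Named are all 10 members, for each the tested classes with its 2 highest levels, the 3 genes most like it by Pearson r (members with at least 100 UMIs, other genes with at least 500), and up to 3 genes per list and direction with an unadjusted p under 0.05 and no overlap. The members, lists and markers were chosen with earlier results of these data known. Depth limits precision most for Il1b and for classes of few nuclei. Other assays of the study were not analysed here.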

Additional observations from a re-analysis of the deposited data

How the results depend on the processing

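Counts of called genes among the members and lists stayed at 0 under the alternatives, with 3 exceptions. DESeq2 called 1 member over all epithelial nuclei (Ripk3) and 1 listed gene over all nuclei (Il1r2). Testing every gene with a count called members in 3 tests of single classes (Gsdmd in goblet-like and T-like nuclei, Gsdme in T-like nuclei). In each of these 3, SAP replicate 2 stood at a larger share of its enterocyte-like level than any other library, as given above. Over all genes of the class fits, the 34 calls in 139855 tests became 648 in as many tests with DESeq2. With every gene tested they became 1932 in 389857 tests. They became 172 by library totals, 7 with a covariate for the barcode lists, and 5 to 227 with 1 library left out. With the replicate number as a block they became 130, of which 0 were members, and the pairing changed no member's call. Of 648 recomputed fold changes of 43 named results, 626 kept direction and side of the threshold, 1 passed it and 21 turned sign, none of which had passed it before.

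With 1 library left out, log2 fold changes of results that turned sign ranged as follows. Casp1 ran from −0.18 to 0.52 over all nuclei, −0.13 to 0.39 over epithelial nuclei, −0.01 to 1.12 in cluster 12 and −0.16 to 0.24 in cluster 1, each lowest without SAP replicate 2. Casp4 ran from −0.12 to 0.33 over all nuclei, −0.16 to 0.35 over epithelial nuclei and −0.30 to 0.71 in cluster 6, again lowest without SAP replicate 2. Il18 ran from −0.21 to 0.15, −0.23 to 0.16 and, in macrophage-like nuclei, −0.69 to 0.13. Gsdmd in enterocyte-like nuclei ran from −0.0222 to 1.10 and Mlkl in enteroendocrine-like nuclei from −0.53 to 0.56. With doublets removed Il18 over all nuclei was 0.0073, with DESeq2 it was 0.0109 in macrophage-like nuclei, and with the replicate block Mlkl in enteroendocrine-like nuclei was −0.0224. Among class-standardised log2 ratios, Casp4 turned to 0.0048 with doublets removed and to 0.0277 at 1% mitochondrial UMIs, and ran from −0.30 to 0.20 with 1 library left out. Casp1 ran from −0.18 to 0.41, and Il1b from −0.26 without SAP replicate 1 to 0.91. The cause was not tested. The 1% limit left 8 classes to standardise.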
